A study of Mus musculus with 31 samples.

Results

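The genes described here are 36 stromal and extracellular matrix genes, chosen by name as those that mark OP9 stromal cells, and all 36 matched a row among the 48881 genes of the count tables. They comprised 7 secreted or membrane-bound signals to blood cells, 2 platelet-derived growth factor receptors, 5 fibrillar collagens, 4 network collagens, 9 matrix glycoproteins and proteoglycans, 5 matrix-processing factors and 4 contractile, membrane or transcription factors. The libraries came from mice labelled C57BL/6. DN1 and DN3 thymocytes, an earlier and a later CD4- CD8- stage of T cell development, were grown on the feeder line OP9-DL1. The medium, called the ILC2 condition, held Stem cell factor besides the interleukins IL-2 and IL-7. All cultured cells carried R26-CreERT2, a tamoxifen-inducible Cre, and the reporter R26-stop-tdTomato. The control cells carried nothing further, and the floxed cells had in addition E2Af/fHEBf/f, the loxP-flanked alleles of the E protein genes E2A and HEB. Each of the 12 culture groups (precursor, genotype and day 4, 5 or 7) held 2 libraries, replicates a and b for floxed cells and c and d for controls. The labels name a sort of tdTomato+ cells for days 5 and 7, after 4-hydroxytamoxifen in both genotypes, and name neither for day 4. For the DN1 day 7 libraries the labels place the tamoxifen on day 7, whereas the study's design text places it on day 4. ILC2 (group 2 innate lymphoid cells) taken from tissue were also used, with no culture named: 2 thymic and 2 lung libraries from plck-Cre;E2Af/fHEBf/f mice (dKO, replicates 1 and 3), in which the proximal Lck promoter drives Cre in developing T cells, and 3 lung libraries from plck-Id1 mice (replicates 1, 2 and 3), in which the same promoter drives an inhibitor of E proteins. The genotype labels of the second and the third of these read plck-Id2 and plck-Id3, and they were grouped by their titles. The labels do not say whether replicates came from separate animals or cultures, so the p-values measure the spread between these libraries.

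OP9 is a mouse bone marrow stromal line from an op/op mouse, a strain with a frameshift in Csf1, and OP9-DL1 carries in addition the Notch ligand Delta-like 1, which lets lymphoid precursors take the T cell path in a dish. Such stromal cells feed blood precursors with CXCL12, stem cell factor (encoded by Kitl) and IL-7, and they secrete the collagens, fibronectin and small proteoglycans of a mesenchymal matrix. Lymphocytes make little of that matrix, so in a mixed culture its transcripts mark the feeder cells, whereas a sort for a reporter carried by the lymphoid cells removes most of them. In bulk RNA fewer cells of a type and less RNA per cell cannot be told apart.

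Culture libraries held 5908459 to 10692186 counts, thymic ILC2 5669876 and 4818443, lung dKO 5627406 and 3695522, and lung Id1 9671437 to 13065445. Levels are given as CPM, a library's counts scaled to a common total. Mitochondrial genes took 2.02% to 3.55% of a culture library's counts. Their share was 56.3% and 62.0% for thymic ILC2, 14.2% and 33.8% for lung dKO cells, and between 30.7% and 50.9% for lung Id1 cells, which lowers the CPM of every other gene in the ILC2 libraries. Xist, the RNA of the inactive X chromosome, stood at 588 to 1901 CPM in floxed and 4.55 to 71.4 CPM in control culture libraries, and summed Y-linked transcripts at 0.508 to 26.7 and 76.4 to 191 CPM, so that genotype and the sex of the cells cannot be told apart in the cultures. A pair of sorted libraries stood apart. DN1 floxed day 7 replicate b held 8607 CPM of 10 skeletal muscle markers, against 9.58 to 73.2 CPM in the other 15 sorted libraries, and DN1 floxed day 5 replicate a held 232 CPM of myeloid markers, against 2.02 to 27.1 CPM in the other 15. On day 4 DN1 floxed replicate a had the most of both, 518 and 487 CPM.

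The 36 genes together were high in the day 4 cultures and low after the sort. Their summed level was 12777, 14626, 17450 and 16646 CPM in the DN1 day 4 libraries (floxed a, floxed b, control c, control d, the order used for all day 4 values) and 6182, 5368, 3560 and 3893 CPM in the DN3 day 4 libraries. In the 16 sorted libraries it lay between 83.9 and 336 CPM, with a median of 132 CPM. No sorted library came near any day 4 library, and the mean sum was 72.4-fold higher on day 4 than on days 5 and 7 in DN1 and 37.3-fold higher in DN3. Without Pdgfrb and Timp3, left out after their values were seen, these ratios were 102 and 56.8, and without Cxcl12, Bgn and Col1a2 they were 54.2 and 24.5. The thymic ILC2 libraries, for which no feeder cells are named, held 25.8 and 48.1 CPM. Lung Id1 libraries held 27.9, 49.6 and 28.1 CPM, and lung dKO libraries 259 and 249 CPM.

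**Figure D1:**
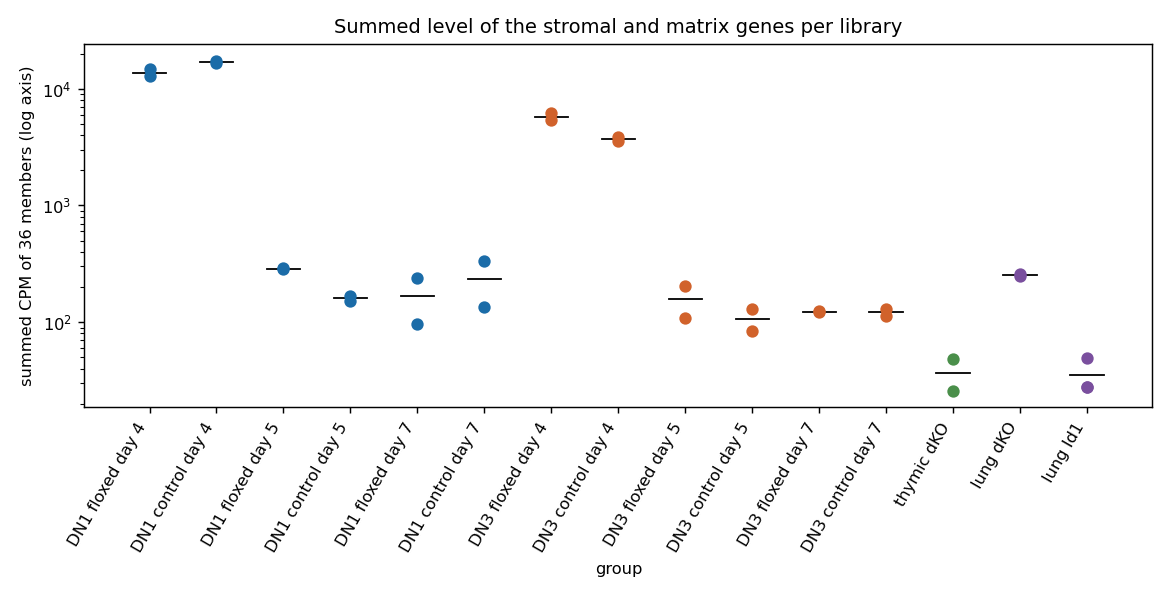
Summed level of the 36 genes in each of 31 libraries (points, CPM on a log axis) by group, with a black line at each group's mean. The DN1 day 4 libraries lie at 12777 to 17450 CPM, the DN3 day 4 libraries at 3560 to 6182 CPM and all sorted libraries at or below 336 CPM.

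Gene by gene, 34 of the 35 testable members fell from day 4 to days 5 and 7 in DN1 (edgeR quasi-likelihood test, adjusted p under 0.05), where 25.8% of all 15172 tested genes did. In DN3 34 of 35 fell as well, against 19.1% of all genes. The member that passed in neither was Dcn, and Lum had too few counts to be tested. Several members, named below with Il7, would not have passed the low-count filter without their day 4 libraries, which favours a fall. The median log2 change of the 35 members was -6.73 in DN1 and -5.64 in DN3, and that of all genes was 0.04 and 0.02. Every DN1 day 4 library lay above every sorted DN1 library for 34 of 36 members, the exceptions being Dcn and Lum. In DN3 this held for 33 of 36, with Pdgfrb as the third exception. The share of all genes separated in this way was not counted. Sorting, time in culture and tamoxifen changed together between the day 4 and the sorted libraries and cannot be told apart. Adipocyte markers, which OP9 cells can acquire, moved the same way: their sum was 851 to 1270 CPM in DN1 day 4 libraries, 251 to 419 CPM in DN3 day 4 libraries and 2.54 to 32.2 CPM in sorted libraries. Of the 7 blood cell markers, 7 rose in DN1, and in DN3 6 rose and Il7r fell. Of all 15172 tested genes, 3763 rose in DN1 and 2623 in DN3.

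**Figure D2:**
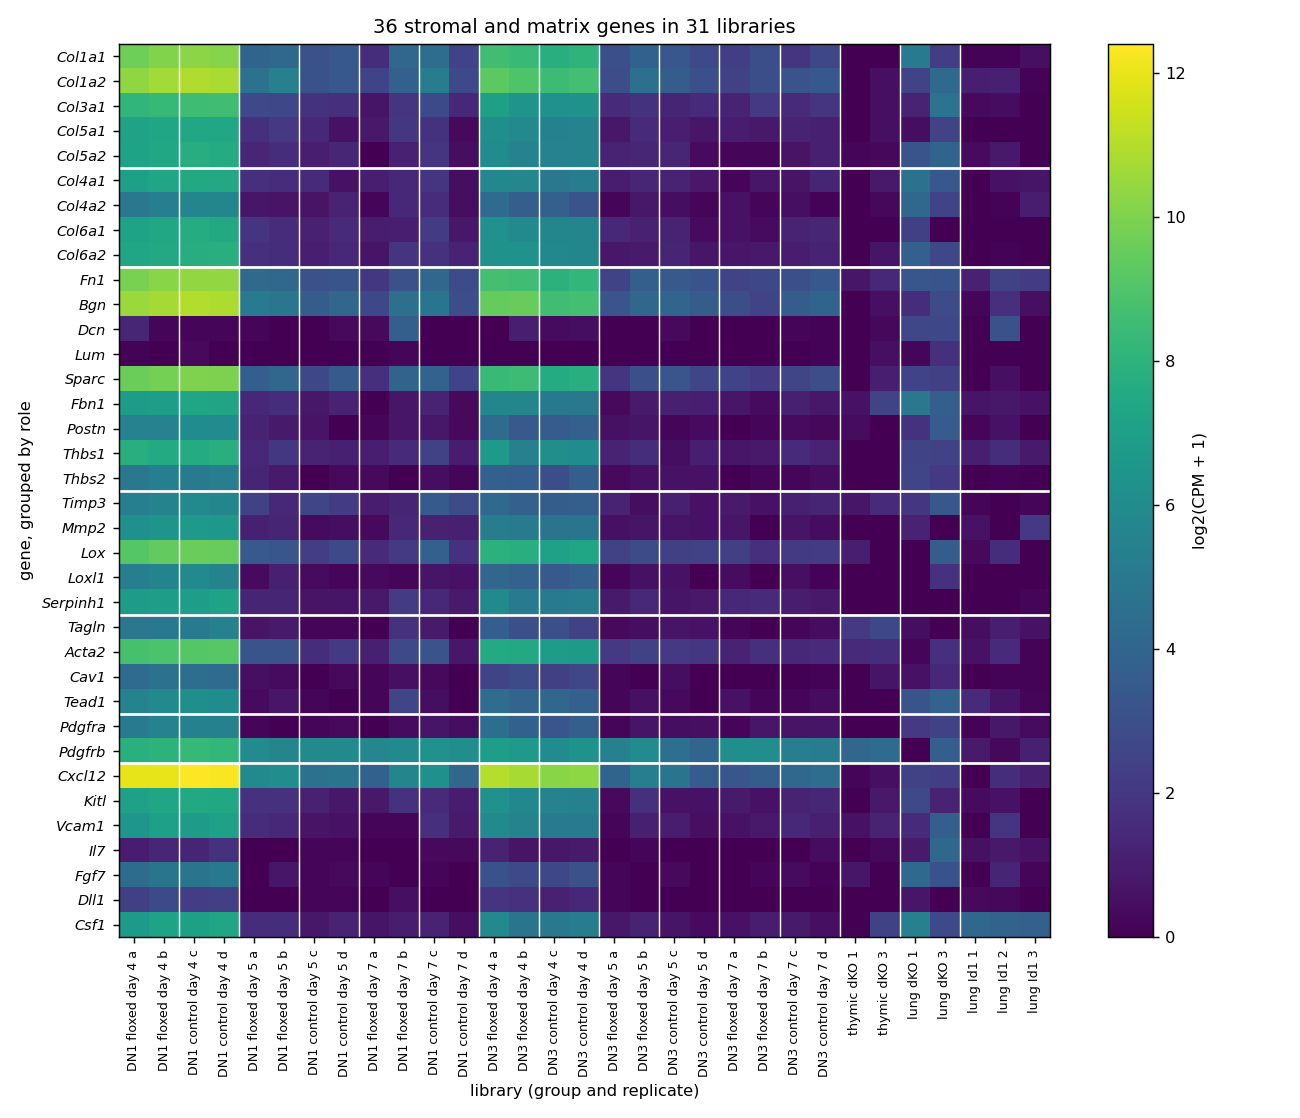
Level of each of the 36 genes (rows, grouped by role) in each of 31 libraries (columns), as log2(CPM + 1). Dcn, Lum, Il7 and Dll1 are the rows with the lowest values in the 8 day 4 columns, and Pdgfrb, followed by Cxcl12, has the highest mean over the sorted columns.

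Among the signals to blood cells, Cxcl12 (chr6:117168535-117181367 in GRCm38, forward strand), the chemokine that holds blood precursors in the marrow, was the most abundant member. Cxcl12 read 3979, 4132, 5426 and 4953 CPM in the DN1 day 4 libraries and 2083, 1770.2, 1160.3 and 1241 CPM in the DN3 day 4 libraries. Sorted Cxcl12 levels ran from 13.4 to 74.2 CPM (median 37.3) in DN1 and from 8.97 to 38.9 CPM (median 15.8) in DN3. The DN1 and DN3 day 4 values did not overlap with each other or with the sorted ones, and the log2 change was -6.88 ± 0.32 (SE) in DN1 and -6.38 ± 0.32 in DN3 (edgeR adjusted p = 5.32e-13 and 5.65e-12, n = 4 and 8 libraries). Kitl, which encodes stem cell factor, read 137, 159.8, 186 and 174 CPM in the DN1 day 4 libraries and 76.2, 54.1, 43.6 and 42.8 CPM in the DN3 day 4 libraries. Sorted Kitl levels ran from 0.760 to 2.53 CPM (median 1.503) in DN1 and from 0.248 to 2.23 CPM (median 0.694) in DN3. Kitl thus showed the same order, DN1 day 4 over DN3 day 4 over sorted cells. Vcam1, an adhesion ligand for the integrin of precursors, read 90.5, 129, 116 and 135 CPM in the DN1 day 4 libraries and 58.2, 45.4, 33.0 and 34.6 CPM in the DN3 day 4 libraries. Sorted Vcam1 levels ran from 0.129 to 2.18 CPM (median 0.734) in DN1 and from 0.124 to 1.70 CPM (median 0.859) in DN3. The sorted DN1 mean was 0.980% of the day 4 mean for Kitl and 0.858% for Vcam1, and neither overlapped between the days.

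Csf1, the macrophage growth factor whose protein op/op cells lack, was still transcribed in these cultures. Csf1 stood at 108, 145, 132 and 160.4 CPM in the DN1 day 4 libraries and 55.9, 26.6, 31.03 and 36.6 CPM in the DN3 day 4 libraries. Sorted Csf1 levels ran from 0.374 to 2.13 CPM (median 1.10) in DN1 and from 0.269 to 1.36 CPM (median 0.696) in DN3. Every day 4 library was above every sorted library. Fgf7, a growth factor for epithelia, read 19.6, 27.6, 26.6 and 31.8 CPM in the DN1 day 4 libraries and 7.63, 5.61, 5.38 and 7.54 CPM in the DN3 day 4 libraries. Sorted Fgf7 levels ran from 0 to 0.708 CPM (median 0.125) in DN1 and from 0 to 0.283 CPM (median 0.114) in DN3. The Notch ligand Dll1, by which OP9-DL1 cells are made, was the lowest of the members that passed in all 3 comparisons. Dll1 had 4.12, 5.83, 3.70 and 4.14 CPM in the DN1 day 4 libraries and 2.64, 2.39, 1.23 and 1.68 CPM in the DN3 day 4 libraries. Over the 8 sorted libraries of each precursor it had 5 counts in DN1 and 1 count in DN3, and its pooled DN3 day 4 level was 123-fold higher than the sorted one (exact 95% interval for counting error 21.2 to 4931). Whether the transcript of the introduced Dll1 is fully counted in this gene's row is not given in the sources used here, and 20.6% of its annotated exon bases are shared with an antisense gene, A930024N18Rik, that had 0 to 0.28 CPM in all culture libraries. Il7, the cytokine that was also added to the medium, had 0.935, 1.53, 1.43 and 2.43 CPM in the DN1 day 4 libraries and 1.39, 0.597, 0.768 and 0.838 CPM in the DN3 day 4 libraries. Il7 fell from day 4 in both precursors (log2 change -4.74 ± 0.66 in DN1 and -4.32 ± 0.74 in DN3, edgeR adjusted p = 1.75e-05 and 0.000256), with at most 0.31 CPM in any sorted library. It had 5 to 17 counts per day 4 library and at most 3 in any sorted one. Like Dll1, Fgf7, Pdgfra, Cav1, Loxl1 and Postn, it passed the low-count filter only through day 4 libraries, which favours a fall. Thbs2, Tagln and Tead1 would not have passed the filter through sorted libraries alone either. On day 4 the DN1 and DN3 values of Il7 overlapped, and the difference did not pass (log2 0.79 ± 0.49, edgeR adjusted p = 0.20).

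The 2 platelet-derived growth factor receptors, tyrosine kinases typical of mesenchymal cells, parted after the sort. Pdgfra read 32.7, 44.9, 42.5 and 42.7 CPM in the DN1 day 4 libraries and 21.5, 13.5, 8.601 and 12.3 CPM in the DN3 day 4 libraries. Sorted Pdgfra levels ran from 0 to 0.607 CPM (median 0.201) in DN1 and from 0.124 to 0.677 CPM (median 0.485) in DN3. Its fall in DN1, log2 -7.69 ± 0.27, was the steepest of the 35 members, and in DN3 it fell by 4.84 on the log2 scale. Pdgfrb read 235, 259, 312 and 294 CPM in the DN1 day 4 libraries and 119, 104, 64.4 and 82.4 CPM in the DN3 day 4 libraries. Sorted Pdgfrb levels ran from 48.7 to 75.5 CPM (median 58.8) in DN1 and from 15.8 to 71.1 CPM (median 40.7) in DN3. So Pdgfrb kept a level of 15.8 CPM or more in every sorted culture library, and in DN3 its highest sorted libraries overlapped with its lowest day 4 libraries. The log2 change of Pdgfrb was -2.17 ± 0.10 in DN1 and -1.13 ± 0.10 in DN3 (edgeR adjusted p = 2.12e-13 and 2.21e-08), the smallest passing change of any member in both.

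Of the fibrillar collagens, 5 of 5 fell in DN1 (median log2 change -6.76) and 5 of 5 in DN3 (median -5.61). Col1a1 (chr11:94936224-94953042), the first chain of type I collagen, held 822, 1081, 1209 and 1155 CPM in the DN1 day 4 libraries and 386, 328, 223 and 269.8 CPM in the DN3 day 4 libraries. Sorted Col1a1 levels ran from 2.06 to 20.9 CPM (median 12.4) in DN1 and from 2.83 to 13.5 CPM (median 6.28) in DN3. Its DN1 change was log2 -6.54 ± 0.29 and its DN3 change -5.46 ± 0.30 (edgeR adjusted p = 3.04e-13 and 2.15e-11). Col1a2, the partner chain of Col1a1, held 1289.6, 1669.7, 1949 and 1817 CPM in the DN1 day 4 libraries and 617, 506, 361 and 416 CPM in the DN3 day 4 libraries. Sorted Col1a2 levels ran from 4.63 to 40.9 CPM (median 11.5) in DN1 and from 4.23 to 22.2 CPM (median 7.601) in DN3. The day 4 and sorted libraries did not overlap for either chain. Col3a1, type III collagen of soft connective tissue, held 282, 314, 378 and 384 CPM in the DN1 day 4 libraries and 131, 83.7, 75.7 and 80.4 CPM in the DN3 day 4 libraries. Sorted Col3a1 levels ran from 0.643 to 5.94 CPM (median 2.59) in DN1 and from 1.35 to 3.11 CPM (median 1.85) in DN3. Type V collagen, which sets the width of collagen fibrils, was represented by 2 chains. Col5a1 held 139, 156, 175 and 168 CPM in the DN1 day 4 libraries and 71.3, 56.5, 43.0 and 45.5 CPM in the DN3 day 4 libraries. Sorted Col5a1 levels ran from 0.250 to 3.12 CPM (median 1.94) in DN1 and from 0.673 to 1.86 CPM (median 1.03) in DN3. The second chain was measured as well. Col5a2 held 144, 172, 208 and 196 CPM in the DN1 day 4 libraries and 65.4, 43.8, 44.7 and 45.8 CPM in the DN3 day 4 libraries. Sorted Col5a2 levels ran from 0 to 2.79 CPM (median 1.36) in DN1 and from 0.135 to 1.55 CPM (median 0.852) in DN3. Its DN1 day 4 values, like those of Col5a1, lay above all DN3 day 4 values.

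The network collagens fell as a set too, 4 of 4 in each precursor, with median log2 changes of -6.72 and -5.75. Col4a1, a chain of basement membrane collagen, read 129.5, 153, 186 and 177 CPM in the DN1 day 4 libraries and 54.1, 52.2, 30.1 and 37.6 CPM in the DN3 day 4 libraries. Sorted Col4a1 levels ran from 0.374 to 2.67 CPM (median 1.69) in DN1 and from 0.169 to 1.49 CPM (median 0.900) in DN3. Col4a2, its head-to-head neighbour and partner chain, had log2 changes of -5.51 ± 0.30 in DN1 and -5.31 ± 0.38 in DN3. Col4a2 read 29.8, 39.1, 49.2 and 51.1 CPM in the DN1 day 4 libraries and 18.9, 12.7, 13.1 and 8.38 CPM in the DN3 day 4 libraries. Sorted Col4a2 levels ran from 0.129 to 1.94 CPM (median 0.649) in DN1 and from 0.103 to 0.744 CPM (median 0.262) in DN3. Type VI collagen forms beaded filaments around cells and was represented by both of its shorter chains. Col6a1 read 146, 172, 203 and 186 CPM in the DN1 day 4 libraries and 77.2, 61.0, 50.2 and 49.7 CPM in the DN3 day 4 libraries. Sorted Col6a1 levels ran from 0.749 to 3.52 CPM (median 1.48) in DN1 and from 0.269 to 1.61 CPM (median 1.26) in DN3. The other chain, Col6a2, ran beside it. Col6a2 read 161, 180.1, 213 and 215 CPM in the DN1 day 4 libraries and 79.5, 80.2, 54.7 and 51.6 CPM in the DN3 day 4 libraries. Sorted Col6a2 levels ran from 0.643 to 2.66 CPM (median 1.89) in DN1 and from 0.673 to 1.42 CPM (median 0.840) in DN3. For all 4 the DN1 day 4 libraries were the highest of the culture libraries.

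Of the 9 glycoproteins and proteoglycans, 8 could be tested and 7 fell in each precursor. Fn1 encodes fibronectin, the main cell-adhesive matrix protein. Fn1 read 973, 1189, 1336 and 1344 CPM in the DN1 day 4 libraries and 433, 389, 251 and 298 CPM in the DN3 day 4 libraries. Sorted Fn1 levels ran from 3.09 to 18.6 CPM (median 7.91) in DN1 and from 4.84 to 12.4 CPM (median 7.71) in DN3. After the sort the DN1 and DN3 ranges of Fn1 overlapped. Bgn, the small proteoglycan biglycan, read 1496, 1718, 2039.6 and 1915 CPM in the DN1 day 4 libraries and 710.0, 733, 391 and 416 CPM in the DN3 day 4 libraries. Sorted Bgn levels ran from 5.53 to 33.6 CPM (median 19.7) in DN1 and from 4.87 to 16.0 CPM (median 11.7) in DN3. Bgn was the second most abundant member per length on day 4. Sparc, a collagen-binding protein, read 788, 898, 1021 and 978 CPM in the DN1 day 4 libraries and 333, 361, 195 and 216 CPM in the DN3 day 4 libraries. Sorted Sparc levels ran from 2.32 to 16.0 CPM (median 11.2) in DN1 and from 2.60 to 8.80 CPM (median 5.11) in DN3. These 3 were above 190 CPM in every day 4 library and under 34 CPM in every sorted one. Fbn1 encodes fibrillin, the backbone of microfibrils. Fbn1 read 114, 120.3, 160.3 and 148 CPM in the DN1 day 4 libraries and 50.4, 48.7, 30.9 and 30.7 CPM in the DN3 day 4 libraries. Sorted Fbn1 levels ran from 0 to 2.13 CPM (median 1.004) in DN1 and from 0.248 to 1.16 CPM (median 0.796) in DN3. One sorted library, DN1 floxed day 7 a, had 0 counts of Fbn1. Postn, the matricellular protein periostin, read 44.4, 44.2, 65.6 and 63.2 CPM in the DN1 day 4 libraries and 19.0, 10.03, 11.4 and 13.0 CPM in the DN3 day 4 libraries. Sorted Postn levels ran from 0 to 1.27 CPM (median 0.630) in DN1 and from 0 to 0.620 CPM (median 0.238) in DN3. The thrombospondins came next in this set. Thbs1, a thrombospondin that can activate TGF-beta, read 219.6, 194, 198 and 229 CPM in the DN1 day 4 libraries and 99.2, 41.1, 70.2 and 64.3 CPM in the DN3 day 4 libraries. Sorted Thbs1 levels ran from 0.999 to 4.25 CPM (median 1.51) in DN1 and from 0.388 to 2.11 CPM (median 1.16) in DN3. All day 4 libraries exceeded all sorted ones. Thbs2 read 30.6, 39.7, 34.3 and 39.2 CPM in the DN1 day 4 libraries and 12.8, 11.9, 6.91 and 12.6 CPM in the DN3 day 4 libraries. Sorted Thbs2 levels ran from 0 to 1.41 CPM (median 0.255) in DN1 and from 0 to 0.539 CPM (median 0.279) in DN3. For these 4 as well the DN1 day 4, DN3 day 4 and sorted values formed 3 ranges that did not overlap.

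Dcn and Lum, the small leucine-rich proteoglycans decorin and lumican, did not follow the other matrix genes. Dcn read 1.496, 0.153, 0.119 and 0.143 CPM in the DN1 day 4 libraries and 0, 1.07, 0.307 and 0.359 CPM in the DN3 day 4 libraries. Lum had 0.0935 and 0.238 CPM in DN1 floxed a and control c and 0 counts in the other 6 day 4 libraries. Both were thus at a few counts per library at most, except for Dcn in DN1 floxed a and DN3 floxed b. Dcn showed no passing change from day 4 (log2 -0.91 ± 1.29 in DN1 and -3.20 ± 1.58 in DN3, edgeR adjusted p = 0.591 and 0.127). The higher Dcn values on day 4, 1.496 CPM in DN1 floxed a and 1.07 CPM in DN3 floxed b, were in the libraries with the most skeletal muscle marker RNA of their precursor on day 4, 518 and 204 CPM, though DN3 control d, with 188 CPM of those markers, had 0.359 CPM of Dcn. The part of other cells in these Dcn counts was not tested.

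All 5 matrix-processing factors fell in both precursors. Lox, lysyl oxidase, which cross-links collagen and elastin, held 559.6, 696, 749 and 726 CPM in the DN1 day 4 libraries and 238, 222, 135 and 159.6 CPM in the DN3 day 4 libraries. Sorted Lox levels ran from 1.80 to 13.0 CPM (median 4.64) in DN1 and from 2.30 to 6.44 CPM (median 4.10) in DN3. The highest sorted value was in DN1 control day 7 c. Loxl1, its close relative, held 39.8, 48.2, 57.2 and 45.5 CPM in the DN1 day 4 libraries and 16.1, 14.1, 10.1 and 12.9 CPM in the DN3 day 4 libraries. Sorted Loxl1 levels ran from 0.127 to 1.13 CPM (median 0.289) in DN1 and from 0 to 0.518 CPM (median 0.231) in DN3. Serpinh1 encodes HSP47, the chaperone of procollagen in the endoplasmic reticulum. Serpinh1 held 115, 119, 119.8 and 147 CPM in the DN1 day 4 libraries and 59.3, 35.1, 34.9 and 37.2 CPM in the DN3 day 4 libraries. Sorted Serpinh1 levels ran from 0.593 to 3.46 CPM (median 1.14) in DN1 and from 0.647 to 1.90 CPM (median 0.929) in DN3. Like the collagens, it was highest in the DN1 day 4 libraries and lowest after the sort. Mmp2, the gelatinase MMP2, held 72.9, 84.1, 103 and 97.7 CPM in the DN1 day 4 libraries and 37.3, 33.3, 26.4 and 27.0 CPM in the DN3 day 4 libraries. Sorted Mmp2 levels ran from 0.257 to 1.60 CPM (median 1.13) in DN1 and from 0 to 0.677 CPM (median 0.552) in DN3. Timp3, a matrix-bound inhibitor of metalloproteinases, was unlike these 4. Timp3 held 40.3, 45.7, 59.4 and 50.9 CPM in the DN1 day 4 libraries and 17.9, 12.8, 11.7 and 12.3 CPM in the DN3 day 4 libraries. Sorted Timp3 levels ran from 0.900 to 10.4 CPM (median 3.83) in DN1 and from 0.372 to 1.45 CPM (median 0.989) in DN3. The sorted mean of Timp3 was 8.55% of its day 4 mean in DN1 and 6.77% in DN3, the highest of the 5. Its log2 change was -3.84 ± 0.19 in DN1 and -3.85 ± 0.25 in DN3 (edgeR adjusted p = 1.56e-12 and 2.03e-10).

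The contractile, membrane and transcription factor genes fell 4 of 4 in each precursor. Acta2, smooth muscle actin, read 436, 472, 559 and 588 CPM in the DN1 day 4 libraries and 193, 181, 113 and 106 CPM in the DN3 day 4 libraries. Sorted Acta2 levels ran from 0.749 to 8.46 CPM (median 4.44) in DN1 and from 1.35 to 4.34 CPM (median 2.56) in DN3. Its DN1 day 4, DN3 day 4 and sorted values did not overlap. Tagln, the actin-binding protein transgelin, read 29.6, 30.8, 34.7 and 42.2 CPM in the DN1 day 4 libraries and 11.9, 7.16, 7.22 and 4.31 CPM in the DN3 day 4 libraries. Sorted Tagln levels ran from 0 to 2.40 CPM (median 0.356) in DN1 and from 0 to 0.647 CPM (median 0.279) in DN3. The highest sorted Tagln value was in DN1 floxed day 7 b, the library with the muscle RNA. Cav1, the coat protein of caveolae, read 19.0, 24.5, 21.6 and 19.3 CPM in the DN1 day 4 libraries and 4.86, 6.45, 4.15 and 5.14 CPM in the DN3 day 4 libraries. Sorted Cav1 levels ran from 0 to 0.423 CPM (median 0.248) in DN1 and from 0 to 0.388 CPM (median 0) in DN3. Of Tagln's annotated exon bases 67.9% are shared with genes on the other strand, mainly Pcsk7, which had 14.6 to 29.6 CPM over all culture libraries. Tead1 encodes a DNA-binding partner of the growth regulator YAP. Tead1 read 45.5, 58.4, 72.0 and 65.1 CPM in the DN1 day 4 libraries and 20.4, 15.4, 16.3 and 13.2 CPM in the DN3 day 4 libraries. Sorted Tead1 levels ran from 0 to 5.06 CPM (median 0.215) in DN1 and from 0 to 0.508 CPM (median 0.200) in DN3. Without DN1 floxed day 7 replicate b the highest sorted Tead1 value was 0.708 CPM.

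Divided by exon length, the day 4 order of the members ran over several orders of magnitude. In DN1 Cxcl12 led with 565 CPM per kilobase, followed by Bgn at 294, Sparc at 243, Acta2 at 234, Col1a1 at 163, Lox at 143, Col1a2 at 135 and Fn1 at 104 CPM per kilobase. In DN3 the same measure was 191 for Cxcl12, 92.2 for Bgn, 73.0 for Sparc, 67.4 for Acta2, 45.9 for Col1a1, 39.5 for Lox, 38.2 for Col1a2 and 29.3 for Fn1. Most neighbours in this order did not differ beyond their spread: of 35 neighbouring pairs, the ranges over the 4 libraries overlapped in 30 in DN1 and 31 in DN3. Among the 8 genes named, Cxcl12 and Bgn did not overlap in either precursor, and Acta2 and Col1a1 did not in DN1. At the other end stood Dll1 at 1.05 and 0.47, Il7 at 0.28 and 0.16, and Dcn at 0.08 CPM per kilobase in DN1. Across 33 members the log2 CPM of DN1 and DN3 day 4 correlated with r = 0.996, a description over genes that share libraries and are not independent replicates.

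**Figure D3:**
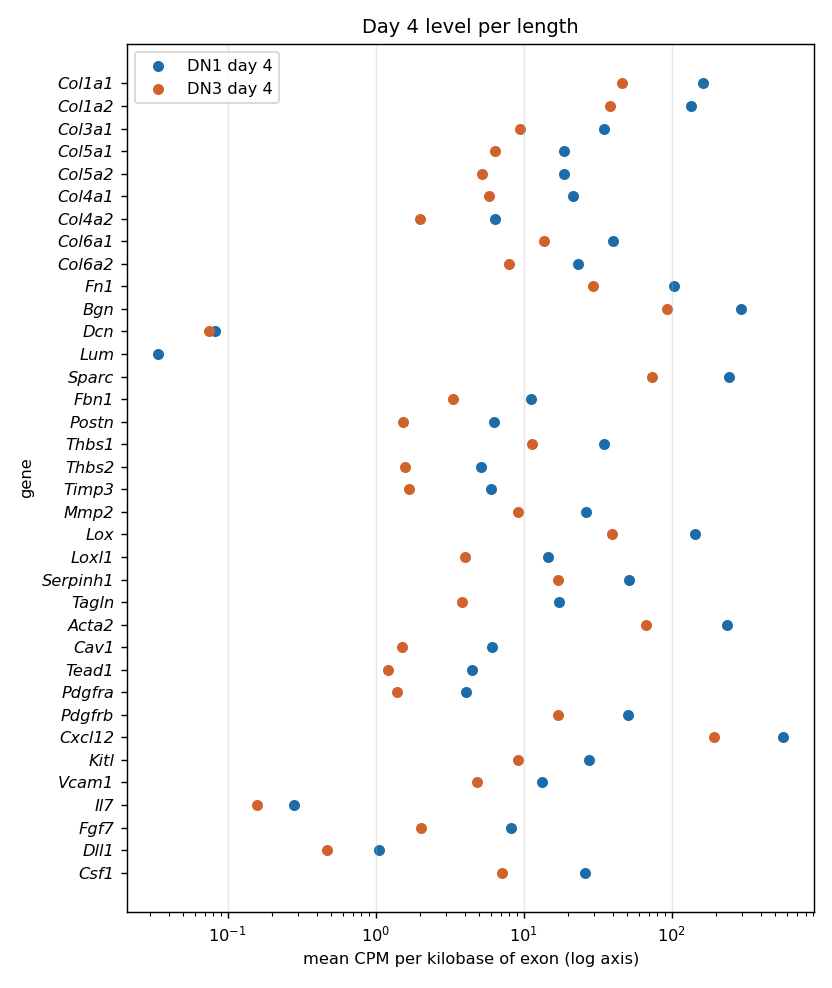
Mean day 4 level of each gene per kilobase of exon (log axis) in DN1 and DN3, over 4 libraries each. Cxcl12 has the highest value in both precursors, the DN1 point lies to the right of the DN3 point for nearly all genes, and Dcn, Lum, Il7 and Dll1 lie far to the left.

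The 250 bases before the annotated start are shown for 3 members: the chemokine Cxcl12, the fibrillar collagen Col3a1 and the collagen chaperone Serpinh1. They were picked by hand among the members whose window is free of annotated exons, and others, such as Bgn, Col5a1 and Csf1, had such a window too. Each is written 5′ to 3′ on the gene's strand from RefSeq's GRCm38.p6 table, and capitals mark every match, on either strand, to the motifs searched. These were GGGCGG, the core of the GC box that factors such as Sp1 bind. The TATA box was searched as TATAAA. The core that TEAD factors bind was searched as GGAATG. The CCAAT box was searched by those letters.
Cxcl12: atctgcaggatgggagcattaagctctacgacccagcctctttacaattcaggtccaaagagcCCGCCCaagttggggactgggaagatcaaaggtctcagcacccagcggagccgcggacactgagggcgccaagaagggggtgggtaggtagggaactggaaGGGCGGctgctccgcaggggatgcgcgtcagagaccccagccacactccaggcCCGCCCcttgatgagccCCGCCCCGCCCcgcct
Col3a1: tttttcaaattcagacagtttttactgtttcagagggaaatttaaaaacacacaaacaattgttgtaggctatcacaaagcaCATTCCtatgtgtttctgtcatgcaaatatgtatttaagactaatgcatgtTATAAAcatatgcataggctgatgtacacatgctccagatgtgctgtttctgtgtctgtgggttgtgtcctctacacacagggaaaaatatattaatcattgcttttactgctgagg
Serpinh1: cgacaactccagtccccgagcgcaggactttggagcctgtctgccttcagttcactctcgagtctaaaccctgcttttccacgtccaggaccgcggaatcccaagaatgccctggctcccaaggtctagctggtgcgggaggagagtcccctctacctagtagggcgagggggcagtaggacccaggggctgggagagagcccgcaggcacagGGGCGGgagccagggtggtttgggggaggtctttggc
The Cxcl12 window is chr6:117168285-117168534 on the forward strand and holds 5 GGGCGG matches, of which the last pair overlap by a base. The Col3a1 window, chr1:45311288-45311537 on the forward strand, holds TATAAA at -117 to -112, counted from the start. The TEAD core lies on its reverse strand at -168 to -163. The Serpinh1 window, chr7:99353240-99353489 on the reverse strand, holds GGGCGG at -37 to -32. The members thus share no single motif: of the 22 members with a window in the table, GGGCGG was found in 12, against 32.7% of all 32841 windows of the same length. The CCAAT motif was in 6 (33.9% of all windows). The TATA box was in 5 (12.4%), the TEAD core in 3 (12.6%) and the CArG box of serum response factor in 0 (1.47%). A member was counted if any of its windows held the motif, whereas the shares are per window. Cav1, Postn, Col6a2 and Dll1 had more than a single window, so counts and shares are not in the same unit. A match describes these letters and is not a measured binding site.

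DN1 cultures held more stromal RNA on day 4 than DN3 cultures. Of 35 members, 33 were higher in DN1 (edgeR adjusted p under 0.05) and 0 lower, where 30.9% of all genes were higher, and at an unadjusted p under 0.05 none was lower either, by edgeR or in DESeq2's adjusted calls. The median log2 difference was 1.81 for the members and 0.10 for all genes. All 4 DN1 libraries lay above all 4 DN3 libraries for 33 of 36 members, the exceptions being Dcn, Lum and Il7. Here too the share of all genes separated in this way was not counted. The ratio of mean CPM between DN1 and DN3 ranged from 2.24 for Dll1 to 4.49 for Tagln over 33 members, with a median of 3.38, and the ratio of the summed level was 3.24. Tagln (log2 2.24 ± 0.34), Cav1 (2.06 ± 0.28) and Postn (2.04 ± 0.21) had the largest differences, and Mmp2 (1.56 ± 0.16), Vcam1 (1.52 ± 0.16) and Dll1 (1.22 ± 0.39) the smallest that passed. Dll1, with an edgeR adjusted p of 0.0177, lost its call in DESeq2 (adjusted p = 0.0798) and in 6 of the 8 fits that each left out 1 day 4 library. Adipocyte markers were higher in DN1 day 4 as well, 5 of 5 tested, while of the 7 blood cell markers 6 were lower and 1 was higher. Of all 15172 tested genes, 2846 were lower in DN1.

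After the sort the members left a small and fairly even remainder. Over 31 members (without Dcn, Lum and Il7, which were low on day 4, and without Pdgfrb and Timp3, set aside after their values were seen), the sorted mean was 0.980% of the day 4 mean at the median in DN1 (0.550% for Pdgfra to 2.12% for Col4a2). In DN3 it was 1.96% (0.782% for Dll1 to 3.96% for Tagln). Across these 31 genes the log2 CPM before and after the sort correlated with r = 0.983 in DN1 and 0.982 in DN3. With Pdgfrb and Timp3 included, r was 0.898 and 0.918. Pdgfrb kept 22.02% of its day 4 level in DN1 and 48.2% in DN3, and Timp3 8.55% and 6.77%. The remainder differed between sorted libraries: the median percentage over the members was 1.59 and 1.64 in DN1 floxed day 5, 0.508 and 0.598 in DN1 control day 5, 0.328 and 1.20 in DN1 floxed day 7, and 1.38 and 0.341 in DN1 control day 7. In DN3 it was 1.66 and 2.80 in floxed day 5, 2.84 and 1.84 in control day 5, 0.981 and 1.02 in floxed day 7, and 2.46 and 2.45 in control day 7. The 2 replicates of each DN1 day 7 group thus differed several-fold.

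**Figure D4:**
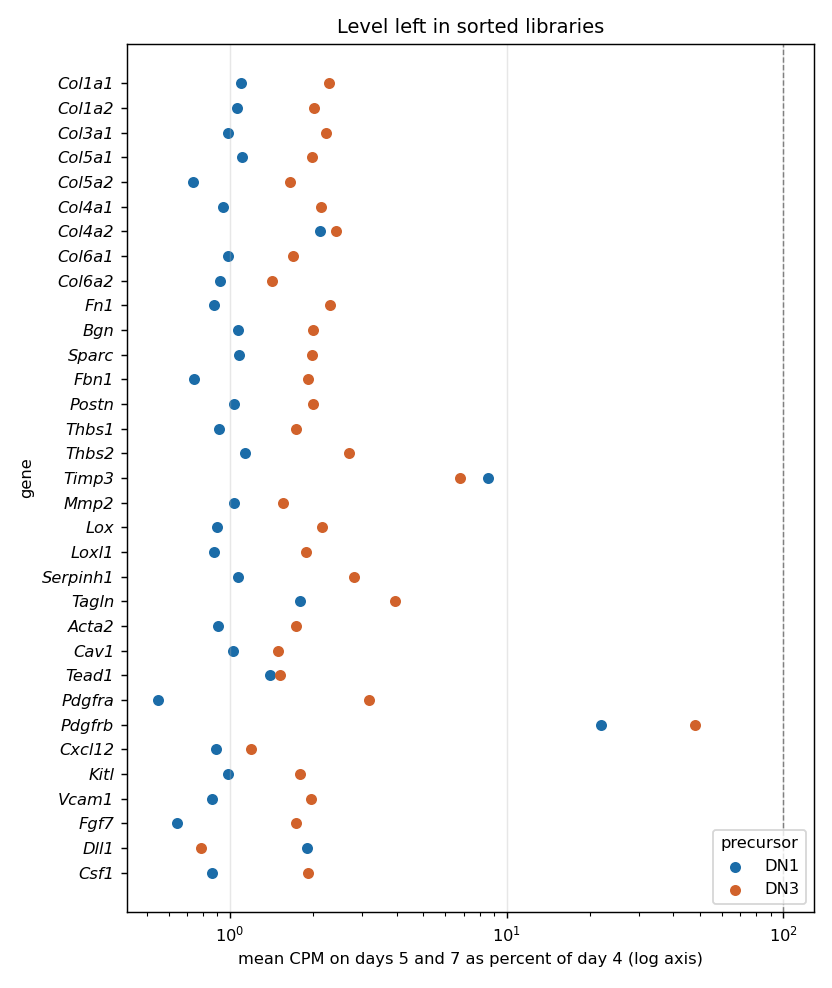
Mean CPM over the 8 sorted libraries as a percentage of the mean over the 4 day 4 libraries (log axis), for each gene and precursor, without Dcn, Lum and Il7. Most points lie near 1% in DN1 and 2% in DN3, Timp3 lies at 8.55% and 6.77%, and Pdgfrb at 22.02% and 48.2%.

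The fall from day 4 was larger in DN1 than in DN3 for 9 of 35 members (edgeR interaction, adjusted p under 0.05) and smaller for 0, with 24.5% of all genes differing in either direction. Of all 15172 tested genes, the change in DN1 was lower than that in DN3 for 2071 and higher for 1650. At an unadjusted p under 0.05 edgeR gave 19 larger and 0 smaller falls, and DESeq2's adjusted calls gave 11 and 0. Of all 15172 genes, 5413 had an unadjusted edgeR p under 0.05, in either direction. The 9 were Pdgfra (-2.85 on the log2 scale), Vcam1 (-1.71), Fn1 (-1.55), Fbn1 (-1.55), Serpinh1 (-1.47), Lox (-1.44), Col3a1 (-1.36), Col4a1 (-1.22) and Pdgfrb (-1.03). The median over the members was -1.03, and for Timp3 the difference was 0.00 (adjusted p = 1). Of the 9, 3 depended on single libraries. Col4a1 lost its call in 13 of the 24 fits that each left out 1 library (-0.89, adjusted p = 0.438, without DN3 floxed day 7 b). Vcam1 lost it without DN3 floxed day 5 b (adjusted p = 0.176), and Fbn1 without that library (0.0902) or DN3 floxed day 7 a (0.0769). The count was 20 without DN1 floxed day 7 replicate b and 18 without DN1 control day 7 replicate c.

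In the sorted libraries themselves 8 of 35 members were higher in DN1 than in DN3 and 0 lower (edgeR adjusted p under 0.05), where 44.5% of all genes differed in either direction. Of all 15172 tested genes, 3420 were higher and 3326 lower in DN1. No member's 8 DN1 libraries lay all above its 8 DN3 libraries. Timp3 had the largest difference that passed, log2 1.88 ± 0.28 (adjusted p = 1.53e-05), followed by Col4a2 at 1.504 ± 0.54 (adjusted p = 0.0294) and Cxcl12 at 1.13 ± 0.29 (adjusted p = 0.00353). Col6a2 (0.90 ± 0.26), Col6a1 (0.89 ± 0.32), Sparc (0.87 ± 0.30), Bgn (0.77 ± 0.26) and Pdgfrb (0.59 ± 0.09, adjusted p = 1.38e-05) were the others. At an unadjusted p under 0.05 edgeR called 1 member lower, Pdgfra (log2 -1.24 ± 0.52, adjusted p = 0.0602), and DESeq2's adjusted calls included none. Timp3, Pdgfrb and Cxcl12 kept their calls in every alternative run, whereas Bgn, Sparc, Col4a2, Col6a1 and Col6a2 lost theirs in 1 or more. The count depended on single libraries. It was 16 and 17 without DN1 floxed day 7 a and control day 7 d, whose median percentages of the day 4 level were the lowest. It was 4 without DN1 floxed day 7 b, control day 7 c or DN3 floxed day 7 b, and 5 without DN3 control day 5 d.

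From day 5 to day 7 few members changed. In DN1 only Fbn1 passed of 35 members (27.3% of all genes), lower on day 7 by log2 -1.45 ± 0.48 (edgeR adjusted p = 0.0298). It read 1.69 and 2.13 CPM in floxed and 0.741 and 1.27 in control libraries on day 5. On day 7 it read 0 and 0.666 CPM in floxed and 1.33 and 0.250 CPM in control libraries. The ranges overlapped, and the call was lost when any of DN1 floxed day 5 b, control day 5 d, floxed day 7 a or control day 7 d was left out. Without DN1 floxed day 7 b 5 members passed, and without control day 7 c 8 did. In DN3 only Pdgfrb passed of 35 (31.8% of all genes), and it was higher on day 7 by log2 0.72 ± 0.12 (edgeR adjusted p = 0.000170). Without DN3 floxed day 5 b or floxed day 7 a 2 members passed.

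No member passed between floxed and control cultures on day 4. In DN1 0 of 35 passed, 0 had an unadjusted p under 0.05 in edgeR and DESeq2 called 0 (0.105% of all genes passed). In DN3 0 of 35 passed in edgeR, 11 had an unadjusted p under 0.05, all of them higher in floxed libraries, and DESeq2 called 2 higher (0.442% of all genes passed in edgeR). Of all 15172 tested genes, 728 in DN1 and 1243 in DN3 had an unadjusted edgeR p under 0.05, in either direction. The estimate was above 0 for 35 of 35 members in DN3, with a median of 0.55, and the summed level was 6182 and 5368 CPM in floxed against 3560 and 3893 CPM in control libraries. On day 5, after tamoxifen, 0 of 35 passed in DN1 (5.02% of all genes passed), 12 had an unadjusted p under 0.05, all higher in floxed cells, and DESeq2 called 0. At that unadjusted threshold 2672 of all 15172 tested genes differed, in either direction. Summed levels were 283 and 290 CPM in floxed and 151 and 168 CPM in control libraries.

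Pdgfrb was the member that differed by genotype in DN3. In DN3 it read 42.5 and 61.5 CPM in floxed and 22.3 and 15.8 CPM in control libraries on day 5. On day 7 the floxed libraries read 71.1 and 67.5 CPM and the controls 38.9 and 37.3 CPM. Both floxed libraries exceeded both controls on each day, and genotype went together with the sex RNA described above. It was the only member to pass on day 5 (log2 1.39 ± 0.18, edgeR adjusted p = 6.30e-05, 9.76% of all genes) and on day 7 (0.93 ± 0.17, adjusted p = 0.000463, 24.9% of all genes). On day 4 its estimate was 0.62 ± 0.16 and did not pass (adjusted p = 0.157), close to the members' median of 0.55. In DN1, Pdgfrb read 62.4 and 48.7 CPM against 59.5 and 58.1 CPM on day 5, and 52.9 and 58.2 against 75.5 and 69.3 CPM on day 7. Neither DN1 difference passed (log2 -0.12 ± 0.17 and -0.32 ± 0.17, edgeR adjusted p = 0.810 and 0.180). The genotype difference was smaller in DN1 than in DN3 by log2 -1.501 ± 0.25 on day 5 (edgeR interaction, adjusted p = 0.00464) and -1.25 ± 0.24 on day 7 (adjusted p = 0.00335). It was the only member to pass these interactions, which were added after the values were seen and which 1.36% and 7.79% of all genes passed. On day 7, 3 members passed without DN1 floxed day 7 a and 2 without DN1 control day 7 d.

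On day 7 5 of 35 members differed between floxed and control DN1 cells (22.5% of all genes). Timp3 was lower in floxed cells, 0.900 and 1.47 CPM against 10.4 and 6.37 CPM, without overlap (log2 -2.76 ± 0.44, edgeR adjusted p = 0.000155). On day 5 Timp3 had read 4.23 and 1.70 CPM in floxed and 5.04 and 3.42 CPM in control DN1 libraries, and its DN3 libraries held 0.372 to 1.45 CPM on both days. The day 7 genotype difference of Timp3 in DN1 was not shown to differ from that in DN3 (interaction log2 -1.89 ± 0.88, adjusted p = 0.202). Vcam1 had 2 counts in the floxed and 25 in the control libraries, an 11.8-fold lower pooled level in floxed cells (exact 95% counting interval 2.93 to 102, edgeR adjusted p = 0.00778). The Vcam1 call was lost without floxed b (adjusted p = 0.0650) and without control c (0.119). Lox read 1.80 and 3.33 CPM in floxed and 13.0 and 2.37 CPM in control libraries, ranges that overlapped (log2 -1.53 ± 0.51, adjusted p = 0.0372), and without control c its log2 change was 0.16. Without control c 2 of the 35 members passed in this comparison. Of the 5 that passed with all libraries, Timp3 was the one that kept its call in every alternative run.

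Dcn and Tead1 were higher in floxed DN1 day 7 cells through 1 library. Dcn had 94 of its 96 counts, and Tead1 38 of its 39, in floxed replicate b, the library with 8607 CPM of skeletal muscle markers. Their levels there were 12.5 and 5.06 CPM, against at most 0.259 and 0.708 CPM in the other 15 sorted libraries. The pooled floxed level of Dcn was at least 34.04-fold higher than in controls, which had 0 counts (floor of 3 counts over the group), and that of Tead1 was 13.8-fold higher (exact 95% counting interval 4.40 to 69.9). Without replicate b the Tead1 log2 change was -0.44 and that of Dcn 4.08 (adjusted p = 0.434). Both calls were also lost without control c (adjusted p = 0.0503 for Tead1 and 0.0723 for Dcn) and without control d (0.151 and 0.0711). The part of muscle cells in these values was not tested. In DN3 on day 7 Dcn had 0 counts in floxed libraries and 1 count in each control library.

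**Figure D5:**
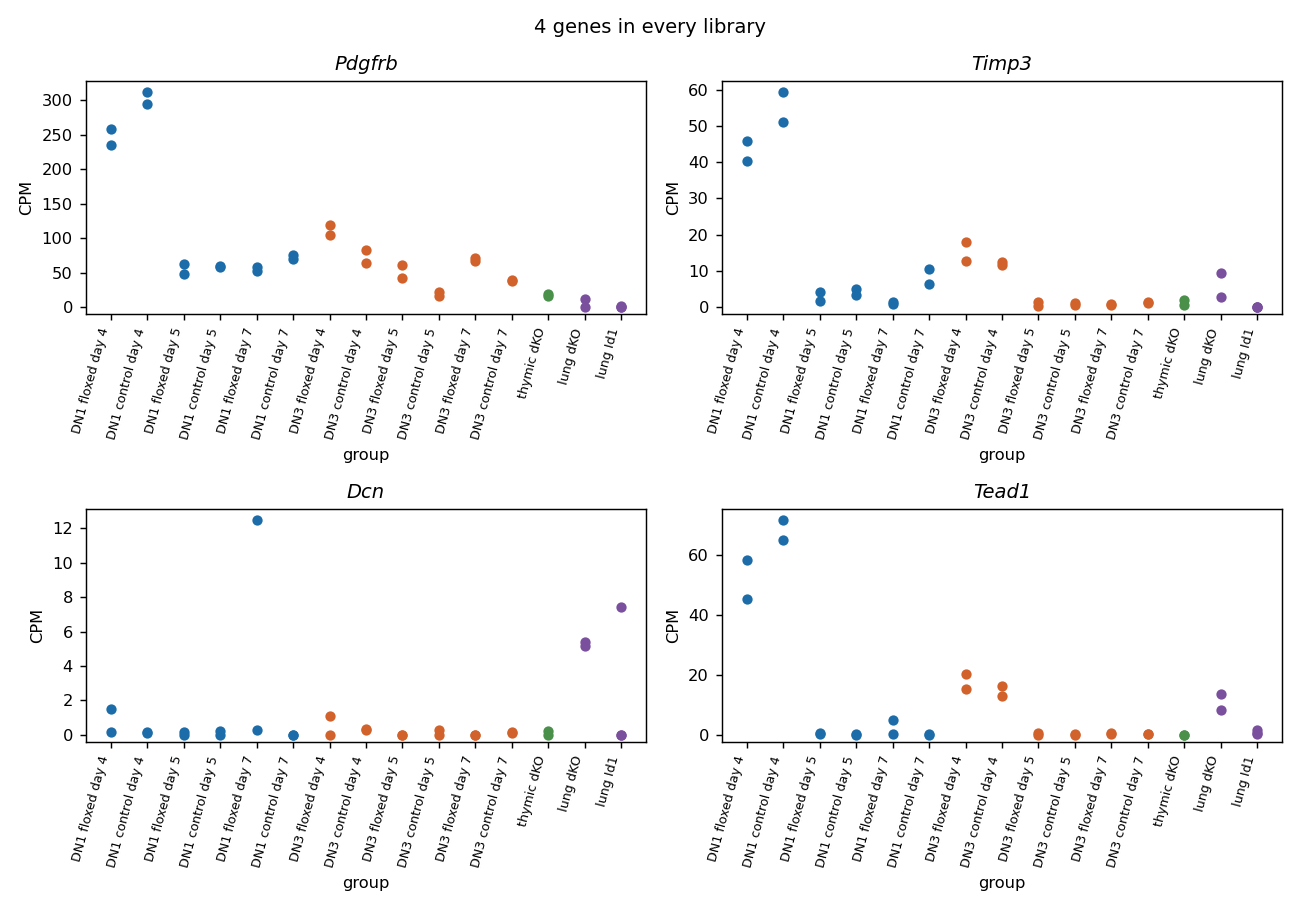
CPM of Pdgfrb, Timp3, Dcn and Tead1 in each library (points) by group, on linear axes. Pdgfrb stays at 15.8 CPM or more in all sorted culture libraries, Timp3 is higher in DN1 than in DN3 control libraries on day 7, and the high sorted Dcn and Tead1 points of 12.5 and 5.06 CPM are the same DN1 floxed day 7 library.

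Thymic ILC2 of dKO mice, for which the labels name no culture, give a level without a feeder layer as far as the labels say. Mitochondrial genes took most of their counts, the 2 libraries differed for several members, and the median log2 difference of all genes was -0.26 against DN1 floxed day 7 and -0.20 against DN3 floxed day 7. Xist stood at 0.176 and 0.208 CPM in the thymic libraries and at 1278 to 1884 CPM in the floxed day 7 cultures. Summed Y-linked transcripts were 298 and 362 CPM against 0.508 to 2.53 CPM. The source of the cells and their sex thus cannot be told apart in these comparisons. Of 35 members 4 were higher and 12 lower than in DN1 floxed day 7 (edgeR adjusted p under 0.05, 73.7% of all genes differed), and 4 higher and 7 lower than in DN3 floxed day 7 (71.8%). Pdgfrb was present in both libraries at 15.9 and 19.5 CPM, or 41.7 and 44.7 CPM when mitochondrial genes were left out of the total. It was lower than in the floxed day 7 cultures by log2 -0.91 ± 0.19 (DN1, adjusted p = 0.000207) and -1.25 ± 0.19 (DN3, adjusted p = 5.03e-06), and the DN1 value ranged from -0.61 to -1.65 over the alternatives, the latter with library totals as the only scaling. Cxcl12 had 3 counts in the thymic libraries together, 107-fold below DN1 floxed day 7 by library totals (exact 95% counting interval 36.4 to 521) and 44.6-fold below (15.2 to 217) with mitochondrial genes left out of both totals. Since the share of mitochondrial counts moves these ratios, the thymic ratios from here on leave those genes out. Cxcl12 was 15.2-fold (5.10 to 74.7) below DN3 floxed day 7. Bgn had 2 counts, 31.03-fold (8.49 to 258) below DN1 and 12.5-fold (3.34 to 105) below DN3. Col1a1 and Serpinh1 had 0 counts, so that the cultures were at least 12.9-fold and 3.05-fold higher in DN1 and at least 8.10-fold and 2.63-fold higher in DN3 (floor of 3 counts over the group).

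The other members lower in thymic ILC2 rested on few counts. Against DN1 floxed day 7 they were Col1a2 (19.3-fold, 5.24 to 161), Dcn (27.5-fold, 4.81 to 1096), Sparc (log2 -3.38 ± 1.11), and, at 0 thymic counts, Col6a1 (at least 1.43-fold), Mmp2 (at least 1.33-fold), Tead1 (at least 3.72-fold) and Thbs1 (at least 2.097-fold). Against DN3 floxed day 7 they were Col1a2 (12.5-fold, 3.34 to 105) and Col3a1 (5.09-fold, 1.30 to 43.9). Without DN1 floxed day 7 b, the library with the muscle RNA, 8 of the 35 members passed against DN1 in either direction. Dcn (log2 -0.68, edgeR adjusted p = 0.825), Sparc (-1.56, 0.262), Tead1 (-3.12, 0.381), Col1a1, Col1a2, Mmp2, Thbs1 and Csf1 then lost their calls. Without thymic replicate 1 9 members passed. Against DN3, 7 passed without DN3 floxed day 7 b and 5 without thymic replicate 3. In every alternative that tested them, Bgn, Cxcl12, Pdgfrb and Serpinh1 kept their calls against DN1, and Pdgfrb, Serpinh1 and Tagln theirs against DN3.

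Among the members higher in thymic ILC2, Tagln read 3.17 and 5.40 CPM in the 2 thymic libraries and 0 to 2.40 CPM in the floxed day 7 cultures. It was higher than in DN1 (log2 2.55 ± 0.70, edgeR adjusted p = 0.00269) and 134-fold higher than in DN3 (44 counts against 1, exact 95% counting interval 22.8 to 5411), or 55.8-fold by library totals. Pcsk7, which shares most of Tagln's exon bases on the other strand, read 7.05 and 21.4 CPM in the same thymic libraries. Fbn1 read 0.529 and 4.77 CPM (log2 3.60 ± 0.83 against DN1 and 3.14 ± 0.80 against DN3, adjusted p = 0.000518 and 0.00147). Csf1 had 0 counts in replicate 1 and 21 in replicate 3 (log2 2.08 ± 0.87 and 2.12 ± 0.91, adjusted p = 0.0374 and 0.0408). Vcam1 was higher than in DN1 with 9 counts against 2, a 15.7-fold ratio (3.26 to 149.7), or 6.56-fold by library totals, and Cav1 passed against DN3 with 3 counts, all in replicate 3, against 0. Without thymic replicate 3 the log2 difference was -5.59 and -5.56 for Csf1, 0.00 for Cav1 against DN3, and 1.53 and 1.06, no longer passing, for Fbn1. That of Vcam1 against DN1 was then 2.76 and no longer passed either.

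In lung ILC2 27 members could be tested, and 10 were higher in dKO than in Id1 libraries (edgeR adjusted p under 0.05, 14.4% of all genes were higher). None was lower, also at an unadjusted p under 0.05 or in DESeq2's adjusted calls. Of the 10, 6 were collagens. Col1a1 read 34.1 and 3.79 CPM in dKO libraries and 0.0765, 0.103 and 0.444 CPM in Id1 libraries (log2 6.37 ± 1.20, adjusted p = 0.0205). Col3a1 read 1.24 and 25.2 CPM against 0.23, 0.31 and 0 CPM (log2 6.33 ± 1.58, adjusted p = 0.0283). Fbn1 read 29.1 and 12.7 CPM against 0.612, 0.724 and 0.533 CPM (log2 5.01 ± 0.82, adjusted p = 0.0181). The dKO values lay above the Id1 values for each of these genes, but the 2 dKO libraries differed widely from each other. The others were Col4a1 (log2 5.43 ± 1.25), Col4a2 (4.94 ± 1.47), Col5a2 (4.88 ± 1.40), Tead1 (3.81 ± 1.15), Timp3 (5.88 ± 1.49), Col6a2, at a 339-fold pooled ratio (93 counts against 1, 59.4 to 13537), and Thbs2, at 146-fold (40 against 1, 24.7 to 5903). With mitochondrial genes left out of the totals these ratios were 285 and 123. Timp3 read 2.84 and 9.47 CPM in dKO libraries, and Syn3, an antisense gene that shares 21.3% of Timp3's exon bases, read 9.95 and 31.7 CPM there and 0 to 0.61 CPM in Id1 libraries. Whether counting used strand is not given in the sources used here.

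Markers of some other cell types were higher in both lung dKO libraries than in all Id1 libraries. Smooth muscle markers summed to 12.6 and 18.4 CPM in dKO against 0.230 to 2.07 CPM in Id1, adipocyte markers (4 of 6 with a count, Fabp4 and Cebpa at 0 in dKO) to 27.5 and 17.3 against 1.84 to 3.93 CPM, lung epithelial markers to 63.3 and 29.8 against 3.02 to 23.7 CPM, and skeletal muscle markers to 87.4 and 137 against 17.99 to 28.5 CPM. Endothelial markers summed to 60.1 and 77.4 against 29.2 to 53.2 CPM. Epithelial, myeloid and B cell markers overlapped between the groups, and mast cell markers were lower in dKO, 19.4 and 14.1 against 27.0 to 32.1 CPM. A count was found for 29734 and 30196 genes in dKO and 22504 to 24722 in Id1 libraries, at fewer total counts. The part of these cells in the collagen values was not tested. Without lung dKO replicate 3 2 members passed, without Id1 replicate 1 4, and without Id1 replicate 3 5. Fbn1 kept its call in every alternative. Col3a1 kept its call where it was tested, but it had no value without lung dKO replicate 3, which held 93 counts against 7 in replicate 1. Nor had it a value without Id1 replicate 1, without Id1 replicate 3 or without mitochondrial genes. How far the Col3a1 call rests on single libraries is thus not known. Csf1 was found in every lung library, at 41.0 and 5.68 CPM in dKO and 17.5, 14.7 and 12.8 CPM in Id1, and did not pass (log2 0.52 ± 0.67, adjusted p = 0.634). Pdgfrb, the member with the highest level in sorted cultures, was at 0 and 12.2 CPM in dKO and at 0.842, 0.207 and 1.15 CPM in Id1 libraries. Dcn reached 7.44 CPM in Id1 replicate 2 and 0 in replicates 1 and 3, against 5.15 and 5.41 CPM in dKO.

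Genes of the same pathways outside the 36 were counted in the same way. Of all 15172 tested genes, 25.8% fell from day 4 in DN1 and 19.1% in DN3, and 30.9% were higher in DN1 on day 4. Of 9 tested other collagens 9 fell from day 4 in DN1 and 8 in DN3, and 8 were higher in DN1 than in DN3 on day 4. Col6a3, the long chain of type VI collagen, went from 634 to 5.96 CPM in DN1 and from 189 to 4.90 CPM in DN3. Col8a1 went from 185 to 1.88 and from 45.7 to 0.597 CPM, and Col16a1 from 53.04 to 2.57 and from 17.8 to 0.579 CPM. Of 24 other matrix proteins 24 fell in DN1 and 22 in DN3, among them Fstl1 (1230.3 to 9.61 CPM in DN1 and 355 to 6.13 CPM in DN3) and Vcan (267 to 2.95 and 74.0 to 4.38 CPM). The most abundant of them, Igfbp4, which binds insulin-like growth factors, fell far less. Its mean was 1515 CPM on day 4 and 1133 CPM after the sort in DN1 (log2 -0.45 ± 0.13, edgeR adjusted p = 0.00644). In DN3 the fitted change of Igfbp4, an average over the groups on the log scale, was -0.52 ± 0.13 (adjusted p = 0.00424), while its mean CPM was higher after the sort, 471 against 388. Of 14 matrix-processing genes 13 fell in DN1, and in DN3 11 fell and 1 rose. Timp2, a second metalloproteinase inhibitor, went from 1079 to 87.5 CPM in DN1 and from 396 to 96.4 CPM in DN3 (log2 -3.73 ± 0.07 and -2.02 ± 0.07). Mmp14 went from 189 to 1.67 and from 53.6 to 1.10 CPM, and Pcolce from 127 to 1.76 and from 41.9 to 0.832 CPM.

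The partners and targets of Tead1 and the genes of actin signalling were counted next, against the same shares of all genes. Of 9 genes of the YAP and TEAD pathway 9 fell in each precursor and 9 were higher in DN1 on day 4, including its targets Ccn1 (311 to 2.69 CPM in DN1 and 101 to 1.52 CPM in DN3), Ccn2 (254 to 2.63 and 68.2 to 1.66 CPM) and Amotl2, which binds YAP (103 to 0.914 and 30.3 to 0.838 CPM). Of 8 actin-linked genes 8 fell in DN1, and in DN3 7 fell and 1 rose. Cald1 went from 562 to 5.39 CPM in DN1 and from 160.1 to 3.06 CPM in DN3, Tpm1 from 352 to 162 and from 144 to 44.2 CPM, and Actn1 from 492 to 198 and from 323 to 274 CPM. Of 6 mesenchymal transcription factors 6 fell in each precursor and 6 were higher in DN1 on day 4. Prrx1 went from 241 to 2.14 CPM in DN1 and from 63.1 to 1.21 CPM in DN3, Snai2 from 143 to 1.12 and from 43.9 to 0.720 CPM, and Osr1 from 48.3 to 0.434 and from 18.2 to 0.232 CPM. The receptors that read the stromal signals did not move together: of 12, 6 rose and 5 fell in DN1, and 4 rose and 7 fell in DN3. Of all 15172 tested genes, 3763 rose and 3909 fell in DN1, and 2623 rose and 2897 fell in DN3. Cxcr4, the receptor of CXCL12, went from 94.6 to 153 CPM in DN1 (log2 0.59 ± 0.15, edgeR adjusted p = 0.00264) and from 159 to 215 CPM in DN3, where it did not pass (0.37 ± 0.15, adjusted p = 0.0546). Notch1, which reads Delta-like 1, went from 99.3 to 136 CPM in DN1 without passing (0.06 ± 0.12, adjusted p = 0.68) and fell in DN3 from 290.5 to 241 CPM (-0.35 ± 0.11, adjusted p = 0.0180). Itgb1, the integrin chain that pairs with the VCAM1-binding alpha chain, fell in both, from 224 to 80.8 CPM in DN1 (-1.45 ± 0.07) and from 125 to 73.7 CPM in DN3 (-0.73 ± 0.07).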

How the data were processed

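The authors deposited raw counts per gene (Ensembl identifiers) for Trizol-extracted total RNA; per the submitters' processing notes the genome build was mm10 and DESeq2 was used, while no source used here names the aligner, the counter or its use of strand. Symbols came from GENCODE M21 for 48664 of 48881 identifiers. Tests used edgeR 4.0.16 in R 4.3.3 (filterByExpr with a minimum count of 10, TMM scaling, quasi-likelihood fit, Benjamini-Hochberg adjusted p under 0.05 over all genes tested). One fit covered the 24 culture libraries (15172 genes), another added the thymic ILC2 (16391 genes) and a separate one the 5 lung libraries (19371 genes). The code was tested on simulated data. CPM were computed from library totals, and intervals and floors cover counting error only. Alternatives were DESeq2 1.42.0, other scalings, no filter, a replicate block, only the groups compared and leaving out each library.

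The 36 members, the companion lists and the marker lists were chosen with earlier results of these data known. Every member is named. Day 4 values are given library by library. Sorted values are mostly given as ranges and medians, and library by library for some members that passed a comparison. Thymic and lung values are given for some of the members that passed there. Companion lists are named by their members with the highest day 4 CPM. Mesenteric lymph node libraries were not analysed here. Exon overlaps were read from GENCODE M21 and promoter windows from RefSeq.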

Additional observations from a re-analysis of the deposited data

Results flagged for a closer look

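For 9 members the fall from day 4 to days 5 and 7 differed between DN1 and DN3 by the edgeR interaction test, which 24.5% of all genes tested passed in either direction. On the log2 scale the DN1 change minus the DN3 change was -2.85 for Pdgfra, -1.71 for Vcam1, -1.55 for Fn1, -1.55 for Fbn1, -1.47 for Serpinh1, -1.44 for Lox, -1.36 for Col3a1, -1.22 for Col4a1 and -1.03 for Pdgfrb. The calls of Vcam1, Fbn1 and Col4a1 were lost when single libraries were left out. The effect of the floxed genotype on Pdgfrb differed between DN1 and DN3 as well, by -1.50 on day 5 and -1.25 on day 7.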

How the results depend on the processing

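Of 166 member changes that passed, 124 kept their call under every alternative that tested the gene, 37 lost it under 1 or more, 4 changed direction and 1, Cav1, went to 0. The falls from day 4 in DN1 and DN3 and every Pdgfrb call were kept wherever tested (Il7 did not pass the filter in DN3 with only the groups compared). The last 5 turned when 1 library was left out. In the DN1 day 7 genotype comparison they were Tead1 (-0.44 without floxed replicate b, at most 7.34) and Lox (0.16 without control replicate c, at least -2.28). In thymic ILC2 they were, without replicate 3, Csf1 (-5.59 against DN1, at most 3.05, and -5.56 against DN3, at most 3.09) and Cav1 (0.00 against DN3, at most 5.86).

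Without the filter on low counts, members passing numbered 19 for the difference in change, 19 for sorted DN1 against DN3, 5 and 9 for day 7 against day 5 in DN1 and DN3, 1, 12 and 10 for the DN1 genotype comparison on days 4, 5 and 7, 10, 3 and 7 for DN3, and 7 and 5 for the difference in genotype effect on days 5 and 7. With only the groups compared they numbered 5 for sorted DN1 against DN3, 0 and 3 for day 7 against day 5, 6 and 1 for the DN1 genotypes on days 5 and 7, 4 and 3 for the DN3 genotypes on days 4 and 7, and 5 and 6 for thymic ILC2 against DN1 and DN3. DESeq2 called 2 for the DN3 genotypes on day 4. Leaving out 1 library gave 6 to 20 for the difference in change, 4 to 17 for sorted DN1 against DN3, 0 to 8 and 1 to 2 for day 7 against day 5, 2 to 7 for the DN1 genotypes on day 7, 8 to 21 and 5 to 10 for thymic ILC2, 2 to 14 for lung ILC2 and 1 to 3 for the difference in genotype effect on day 7. The cause was not tested, beyond that these fits hold other genes or fewer libraries.

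Without Cxcl12, Bgn and Col1a2 the mean summed level was 7278 CPM in DN1 day 4, 2149.85 CPM in DN3 day 4 and 87.8 CPM in sorted DN3. Without Pdgfrb and Timp3, a choice made after seeing the data, it was 81.7 CPM in sorted DN3. A replicate block by letter gave 0 members for DN1 day 7 against day 5. The letters were not shown to pair libraries: of 12 same-letter pairs across days, 4 had deviations correlated over 0.1 (r from -0.19 to 0.26). Many members had few counts after the sort, where Pdgfrb, with far more, passed at a log2 difference of 0.59 ± 0.09 between sorted DN1 and DN3.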
